A study of Gallus gallus with 12 samples.

Results

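The breast muscle of broilers fed a phosphorus- and calcium-restricted diet with phytase was compared with that of broilers fed the same restricted diet without the enzyme. The phytase group comprised the 4 arrays titled Treatment C and the restricted group the 4 arrays titled Treatment B, which makes 8 of the 12 arrays of the series. The other 4 arrays, Treatment A, came from birds on a normal diet and their means are given beside the values of some genes. All birds were Ross PM3 chickens, a commercial broiler cross, and their Pectoralis major was taken on day 36. Each array held RNA pooled from 4 birds, so that every value below is the level of a pool and the spread between replicates is a spread between pools, not between birds. The phytase arrays were labelled Phy1000. The sources used here give no unit for the phytase dose, no sex of the birds and no account of how a pool was put together. The measure was the difference of diet means, phytase minus restricted, on the log2 scale for each transcript cluster, the array's unit of one transcribed locus. Differences were taken for the 12482 of 20804 transcript clusters whose mean over all 12 arrays reached the 40th percentile, a level of 2.67 on the log2 scale. They represent 7954 named genes, each read from its brightest cluster.

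Phytate, an inositol ring carrying phosphate groups, is the main store of phosphorus in seeds, and poultry digest it poorly. It also binds calcium. Phytase removes the phosphates one after another, which frees phosphate and lower inositol phosphates in the gut. Pectoralis major is a fast, glycolytic flight muscle, whose contraction depends on phosphate-rich fuels, on calcium release from the sarcoplasmic reticulum and on a sarcomere framework built from titin, alpha-actinin and the M-band proteins.

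The pools were skeletal muscle by their defining genes, with ACTA1, skeletal actin, between 13.54 and 13.64 on the log2 scale in the 8 pools of both diets. Array medians lay between 3.10 and 3.19. Restricted replicate 1 stood apart, with a mean correlation of 0.950 with the other 11 arrays, and limma gave it the lowest weight, 0.490. HINTW, a transcript of the female-specific W chromosome, was high in phytase replicates 1 and 4 and in restricted replicates 1 and 2, at 7.57 to 8.08 on the log2 scale, and at 2.27 to 2.76 in every other array. Both diets thus held 2 pools with and 2 pools without that signal. The spread was wider among restricted pools, whose SD exceeded that of the phytase pools in 64.3% of transcript clusters.

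Of 12482 transcript clusters 0, that is 0.0%, were called at 5% false discovery by limma and Benjamini-Hochberg, where the smallest adjusted p was 0.519. At an unadjusted limma p under 0.05 there were 1102 transcript clusters, or 8.83% (901 without restricted replicate 1), of which 628 (5.03%) were higher and 474 (3.8%) lower with phytase. The pools of the diets did not overlap in 458 transcript clusters (3.67%), 205 (1.64%) with phytase above and 253 (2.03%) with phytase below. Of the 7954 genes 52.0% had a difference above 0 and 47.8% one below 0. Among them the limma rule counted 709, or 8.91%, with 461 (5.8%) higher and 248 (3.12%) lower with phytase. Pools did not overlap in 286 genes (3.6%), 143 of them (1.8%) with phytase above and 143 (1.8%) with phytase below. Most differences were small, with a median size of 0.15 against a median standard error of 0.17 on the log2 scale, and 26 of 12482 transcript clusters differed by more than 1. A typical 95% interval reached 0.37 on the log2 scale to either side of its estimate. The genes and groups below are therefore described by their values in each pool and not as established changes.

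Most genes of the sarcomere framework were higher with phytase, though none passed the adjusted threshold. Of 26 genes for giant, Z-disc and M-band proteins, 22 were higher with phytase and 3 lower, and the median difference was 0.37 on the log2 scale, beside 0.01 over all 7954 genes. TTN, which encodes the spring protein titin, was at 11.99, 12.01, 11.96 and 11.86 on the log2 scale in phytase pools, against 11.51, 11.46, 11.88 and 11.61 in restricted pools. Restricted replicate 3 reached the lowest phytase pool, and the other 3 restricted pools lay below all phytase pools. The normal pools averaged 11.73. IGFN1, a Z-disc protein expressed in skeletal muscle, was at 9.58, 9.50, 9.54 and 9.45 with phytase, against 8.86, 9.20, 9.16 and 9.04 on the restricted diet, with no overlap and a difference of 0.45 ± 0.12 (SE), and normal pools averaged 9.4. NRAP, which anchors actin during myofibril assembly, was at 8.70, 8.55, 8.46 and 7.79 with phytase and at 6.95, 7.74, 7.62 and 7.77 on the restricted diet. Its groups were separated by 0.02 only, because phytase replicate 4 was low, and without restricted replicate 1 its difference was 0.67, against 0.85 ± 0.23 (SE) with all pools.

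The other members of the framework shared this order with more overlap. MYOM2, the M-band protein myomesin 2, was at 10.63, 10.53, 10.42 and 10.15 with phytase, against 9.87, 10.01, 10.16 and 10.06 on the restricted diet. ACTN2, the Z-disc alpha-actinin, differed by 0.54 ± 0.20 (SE) and MYOM1 by 0.26 ± 0.13 (SE). The sole member at an unadjusted limma p under 0.05 in the other direction was TMOD4, which caps the pointed ends of thin filaments, at -0.33 ± 0.11 (SE). In all, 6 of the 26 were higher and 1 lower by that rule, beside 5.8% and 3.12% of genes, and 2 did not overlap, beside 1.8%. MYBPC1, myosin-binding protein C of slow type, showed the widest spread among restricted pools. It was at 7.28, 9.04, 8.84 and 8.71 with phytase and at 5.37, 8.19, 8.41 and 7.38 on the restricted diet.

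Restricted replicate 1 was the lowest pool of the framework list. The mean deviation of its 26 genes from the mean of the 8 pools was 0.10, 0.29, 0.15 and 0.12 on the log2 scale in phytase pools and -0.50, -0.07, 0.03 and -0.12 in restricted pools. The groups did not overlap. Without restricted replicate 1 the list's median difference was 0.26, and over all single pools left out it reached 0.43 at most, with 19 to 23 of the 26 genes higher. It was 0.23 among pools without HINTW signal and 0.47 among pools with it.

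**Figure D1:**
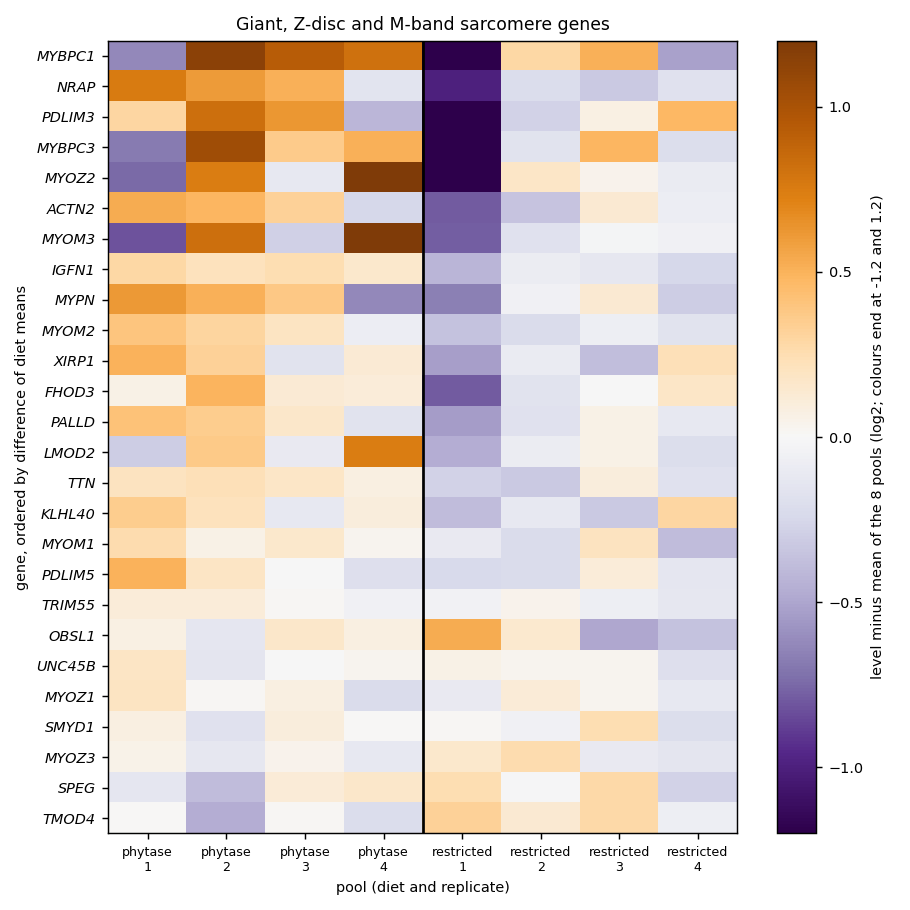
Level of the 26 genes of the sarcomere framework in each pool, as the deviation from the mean of the 8 pools on the log2 scale, with phytase pools left of the line and restricted pools right of it. Restricted replicate 1 is the darkest low column, and the genes at the top, such as MYBPC1 and NRAP, have the largest differences of diet means.

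Of 11 genes for fast-fibre contractile proteins 7 were higher and 4 lower, with a median difference of 0.03 on the log2 scale. The 2 largest differences were in fast myosin heavy chains of the chicken. MYH1A was at 10.19, 9.96, 10.25 and 9.74 with phytase and at 8.92, 9.91, 9.36 and 9.82 on the restricted diet, and its difference of 0.53 ± 0.21 (SE) was 0.34 without restricted replicate 1. MYH1C was at 9.33, 11, 10.25 and 10.63 with phytase and at 7.60, 10.30, 10.71 and 9.36 on the restricted diet, a difference of 0.81 ± 0.59 (SE) that was 0.18 without that pool. Restricted replicate 1 was the lowest pool of both. TNNC2, fast troponin C, differed by -0.02 ± 0.07 (SE), a value that was 0.055 in pools without HINTW signal and 0.01 at most with 1 pool left out. TNNT3, fast troponin T, differed by -0.02 ± 0.07 (SE) and MYH1E by 0.16 ± 0.08 (SE). MYLK2, the skeletal kinase that phosphorylates the regulatory light chain of fast myosin, differed in the other direction. It was at 7.88, 7.62, 7.89 and 7.99 with phytase, against 8.5, 8.38, 8.23 and 8.01 on the restricted diet, a difference of -0.43 ± 0.12 (SE) without overlap, and the normal pools averaged 7.95.

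Slow-fibre and stretch-response genes varied widely between pools of one diet. Of 12 such genes 11 were higher with phytase, with a median of 0.16 on the log2 scale, and 2 of them were higher at an unadjusted limma p under 0.05, beside 5.8% of all genes. CSRP3, a stretch-sensing protein of the Z-disc, was at 4.20, 5.15, 4.87 and 6.38 with phytase, against 3.84, 4.55, 4.54 and 4.26 on the restricted diet. ANKRD1, a titin-binding ankyrin repeat protein, was at 10.57, 10.50, 10.44 and 9.78 with phytase and at 8.94, 9.65, 9.70 and 10.43 on the restricted diet. MB, myoglobin, was at 4.40, 5.37, 5.51 and 5.41 with phytase, against 4.47, 4.89, 4.99 and 4.38 on the restricted diet. Among these 3 genes the order of pools was not shared, since phytase replicate 4 was highest in CSRP3 and lowest of its diet in ANKRD1. TNNI1, slow troponin I, ran from 4.73 to 7.03 within the phytase pools and from 4.96 to 6.54 within the restricted pools. Without restricted replicate 1 the median of the slow-fibre list was 0.03, and with any single pool left out 8 to 11 of the 12 genes were higher.

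Genes that read calcium in the muscle fibre included 2 of 19 whose groups did not overlap, both higher with phytase, beside 1.8% of all genes. PPP3CB, a catalytic subunit of the calcium-dependent phosphatase calcineurin, was at 5.85, 5.54, 5.51 and 5.13 on the log2 scale with phytase, against 4.28, 5.01, 4.81 and 5.04 on the restricted diet, and the normal pools averaged 4.99. Its difference was 0.72 ± 0.19 (SE), and it ran from 0.55 to 0.85 with 1 pool left out. Restricted replicate 1, at 4.28, was the lowest pool of PPP3CB. CAMK2D, the delta chain of calmodulin-dependent kinase II, was at 7.23, 7.18, 7.32 and 7.14 with phytase and at 6.80, 6.70, 6.64 and 6.77 on the restricted diet. Both groups were tight, and the gap between them was 0.34. The normal pools averaged 6.96 but were at 6.84, 6.62, 7.19 and 7.18. Pools of that single diet thus ran from below all restricted pools into the phytase range. The difference of CAMK2D was 0.49 ± 0.14 (SE), and it lay between 0.46 and 0.52 whichever single pool was left out.

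The rest of the calcium machinery showed no common direction. Of 19 genes of calcineurin and calmodulin kinase signalling 12 were higher and 7 lower with phytase, with a median of 0.04 on the log2 scale. PPP3R1, the regulatory subunit of calcineurin, differed by 0.29 ± 0.14 (SE), and its targets NFATC1 and NFATC3 differed by 0.12 ± 0.15 (SE) and 0.14 ± 0.24 (SE). Of 19 genes of calcium release, storage and reuptake 12 were higher and 7 lower, with a median of 0.06. CACNA2D1, a subunit of the voltage sensor, differed by 0.70 ± 0.26 (SE), RYR3, a calcium release channel, by 0.49 ± 0.20 (SE), and FKBP1A, which binds such channels, by -0.31 ± 0.12 (SE). CASQ2, a calcium store protein, stood between 11.61 and 11.82 in all 8 pools. ATP2A1, RYR1, CASQ1, PPP3CA and PPP3CC were not named in the annotation and were not analysed here.

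**Figure D2:**
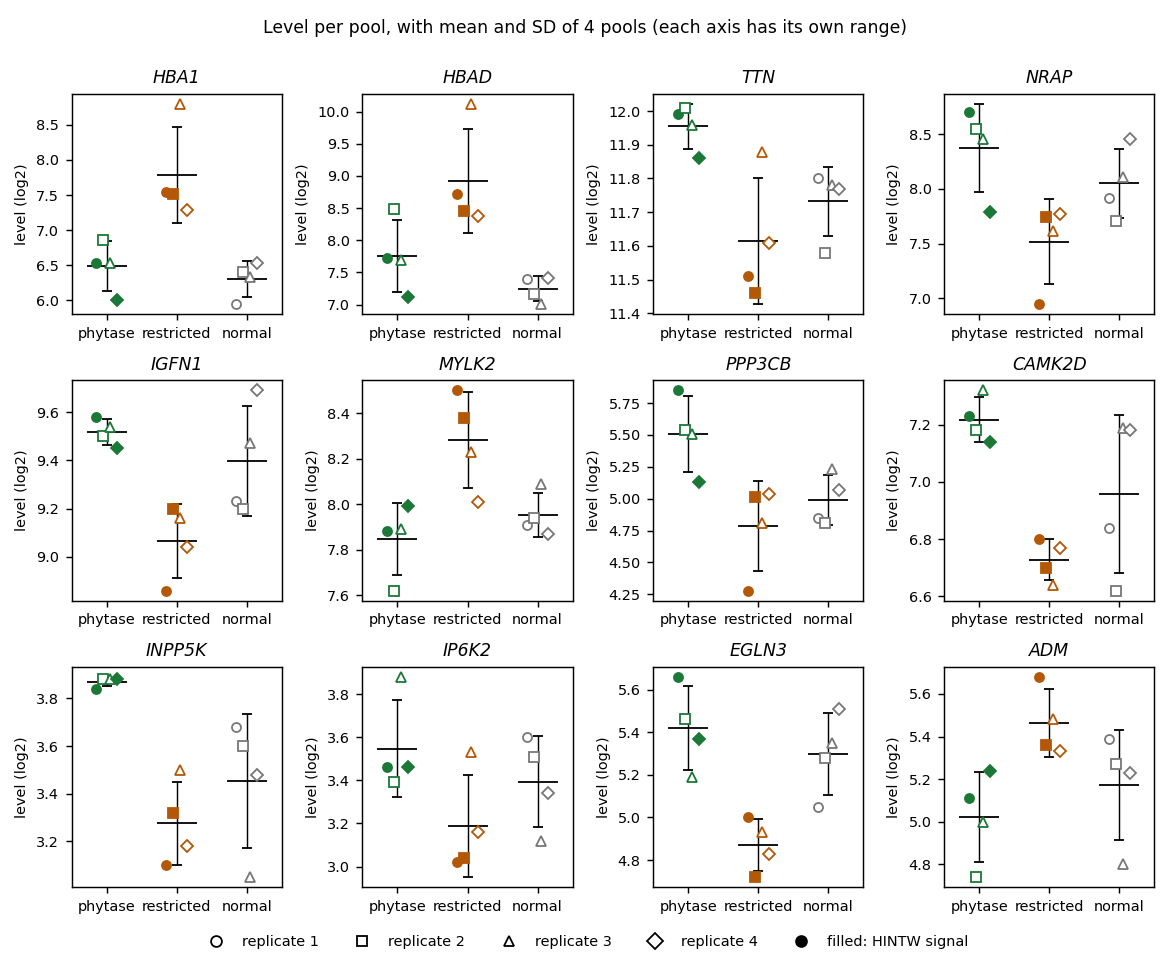
Level on the log2 scale in each pool for 12 genes, with phytase pools at left, restricted pools in the middle and normal pools at right, and bars for mean and SD of 4 pools. Phytase and restricted pools do not overlap in HBA1, NRAP, IGFN1, MYLK2, PPP3CB, CAMK2D, INPP5K, EGLN3 and ADM, and they overlap in HBAD, TTN and IP6K2.

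Of 25 genes for enzymes that act on inositol phosphates or on phosphoinositide lipids 15 were higher and 10 lower with phytase, with a median of 0.11 on the log2 scale. INPP5K, an inositol polyphosphate phosphatase abundant in mammalian muscle, had the largest difference of the 25. It was at 3.84, 3.88, 3.88 and 3.88 with phytase, against 3.10, 3.32, 3.5 and 3.18 on the restricted diet, with normal pools at 3.45 on average. The difference was 0.59 ± 0.15 (SE) and shrank to 0.25 when 16 was added to the linear values of these dim levels. NUDT4, which cleaves diphosphates of inositol pyrophosphates, was at 7.46, 7.43, 7.56 and 7.33 with phytase. On the restricted diet NUDT4 was at 6.85, 7.25, 7.21 and 7.24, without overlap. Its difference was 0.31 ± 0.17 (SE), while NUDT3 differed by -0.31 ± 0.19 (SE), the lowest difference of the 25. INPP5K and NUDT4 were the 2 of 25 higher without overlap, beside 1.8% of all genes. IP6K2, which makes inositol pyrophosphates from phytate inside the cell, was at 3.46, 3.39, 3.88 and 3.46 with phytase, against 3.02, 3.04, 3.53 and 3.16 on the restricted diet. Replicate 3 was the highest pool of both diets in IP6K2, so that the groups overlapped, and the difference was 0.36 ± 0.16 (SE). INPP5K and IP6K2 were the 2 of 25 at an unadjusted limma p under 0.05, beside 8.91% of genes.

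MINPP1, the animal enzyme that itself breaks down phytate, was at 4.04, 4.78, 4.42 and 4.86 with phytase and at 4.36, 4.58, 4.27 and 4.64 on the restricted diet. Its difference of 0.06 ± 0.20 (SE) changed sign when single pools were left out. IPPK, which makes phytate in the cell, differed by 0.11 ± 0.17 (SE), IPMK, an upstream kinase, by 0.16 ± 0.21 (SE), and IP6K1 by -0.02 ± 0.14 (SE). The inositol monophosphatases IMPA1 and IMPA2, which release free inositol, differed by 0.37 ± 0.21 (SE) and 0.16 ± 0.27 (SE), and IMPA1 by 0.20 without phytase replicate 1. For 23 of the 25 genes the 95% interval held 0, and for all 25 it lay within 1 on the log2 scale to either side of 0.

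Phosphate transporters and regulators showed small differences, mostly below 0. Of 17 genes, 3 were higher and 14 lower with phytase, the median was -0.12 on the log2 scale, and 0 were at an unadjusted limma p under 0.05, beside 8.91% of genes. SLC20A1, the sodium-phosphate cotransporter PiT-1, was at 2.74, 3.27, 2.70 and 3.21 with phytase and at 3.23, 3.48, 3.19 and 3.45 on the restricted diet, close to the brightness limit of 2.67. Its partner SLC20A2, PiT-2, differed by 0.09 ± 0.15 (SE). XPR1, the phosphate exporter, was bright and nearly level, at 8.16, 7.85, 7.85 and 7.91 with phytase and at 7.90, 8.08, 7.94 and 7.82 on the restricted diet. SLC25A3, the mitochondrial phosphate carrier, differed by -0.18 ± 0.12 (SE), PHOSPHO1, a phosphatase of bone and muscle, by -0.19 ± 0.14 (SE) and STC2, stanniocalcin 2, by -0.40 ± 0.20 (SE), or -0.24 without phytase replicate 2. STC2 averaged 2.60 with phytase and 2.59 in normal pools, under the brightness limit. It passed that limit through the restricted pools, at 3.00 on average, and its difference was -0.12 with 16 added to the linear values. The 95% interval held 0 for all 17 genes and lay within 1 of 0 for 16. The exception was SPP1, osteopontin, with an interval from -1.63 to 1.73.

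Genes of vitamin D action and systemic calcium gave 4 higher and 5 lower of 9, with a median of -0.10 on the log2 scale that was -0.01 without restricted replicate 2. ATP2B1, a calcium pump of the plasma membrane, was the 1 of 9 genes at an unadjusted limma p under 0.05, close to the 8.91% of all genes. It was at 5.37, 5.18, 4.91 and 4.97 with phytase, against 4.46, 4.27, 4.57 and 5.05 on the restricted diet, where replicate 4 reached the phytase range. CYP24A1, which inactivates vitamin D, differed by 0.25 ± 0.21 (SE). VDR, the vitamin D receptor, was not named in the annotation and was not analysed here.

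**Figure D3:**
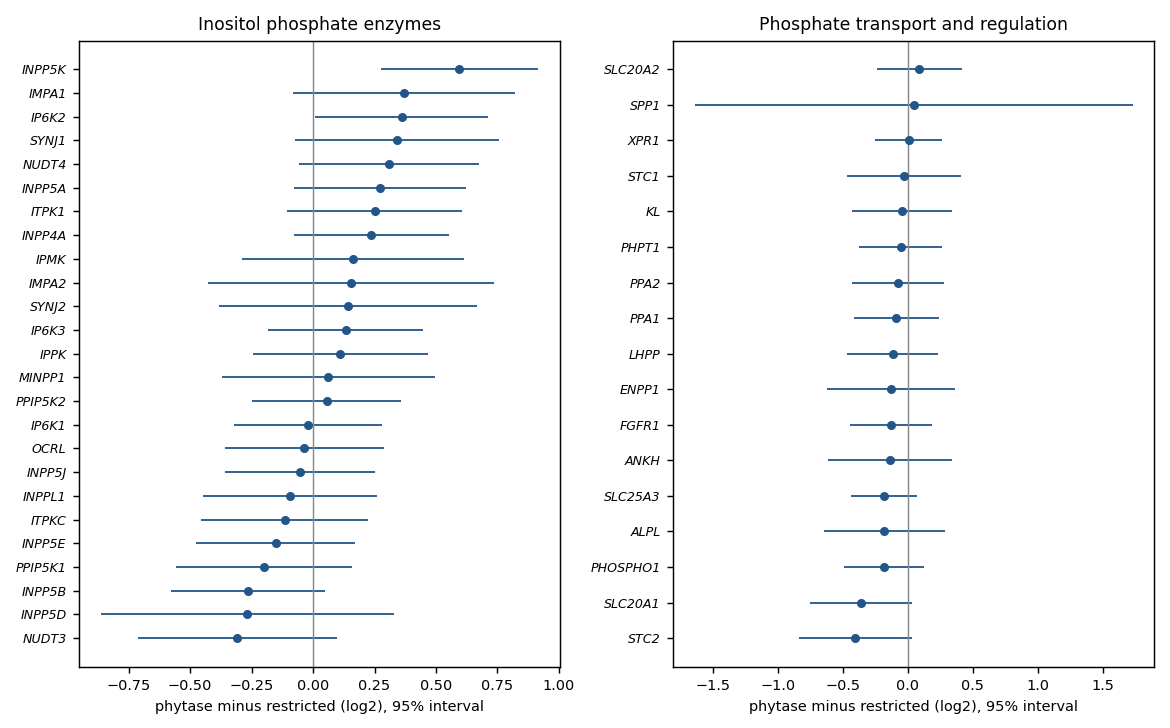
Difference, phytase minus restricted, on the log2 scale with its 95% interval in limma for 25 enzymes that act on inositol phosphates or phosphoinositide lipids (left) and 17 genes of phosphate transport and regulation (right). INPP5K and IP6K2 are the 2 genes whose interval does not reach 0, and SPP1 has the widest interval of the right panel.

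Globin transcripts were lower with phytase than on the restricted diet alone. HBA1, an alpha globin, was at 6.54, 6.86, 6.54 and 6.01 on the log2 scale with phytase, against 7.55, 7.52, 8.80 and 7.29 on the restricted diet, and normal pools averaged 6.31. HBAD, the other adult alpha-type globin of birds, was at 7.72, 8.48, 7.69 and 7.12 with phytase, against 8.72, 8.46, 10.12 and 8.38 on the restricted diet, and normal pools averaged 7.25. Groups did not overlap in HBA1, and phytase replicate 2 overlapped the restricted pools in HBAD. Restricted replicate 3 was the highest pool for both, and without it HBA1 differed by -0.97 and HBAD by -0.77, against -1.30 ± 0.28 (SE) and -1.17 ± 0.34 (SE) with all pools. The HBA1 difference was -1.34 in pools without HINTW signal and -1.26 in pools with it. In bulk muscle, fewer red cells and less globin RNA per cell cannot be told apart.

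Other genes that mark red cells were too dim to be compared. Of the 10 named on the array, HBA1 and HBAD were tested, and the other 8 had means between 1.97 and 2.64 on the log2 scale, below the limit of 2.67, among them SLC4A1, the anion exchanger of the red cell membrane, at 2.38. Heme synthesis, iron uptake and breakdown gave 3 higher and 8 lower of 11 genes, with a median of -0.11. ALAD, the second enzyme of heme synthesis, was at 4.48, 4.61, 4.18 and 4.40 with phytase, against 5.03, 4.93, 4.70 and 4.67 on the restricted diet, without overlap. A dimmer transcript cluster of ALAD differed by -0.03 ± 0.15 (SE), so the clusters of this gene disagree.

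Oxygen-responsive genes were split. EGLN3, a prolyl hydroxylase that marks hypoxia-inducible factor for degradation, was at 5.66, 5.46, 5.19 and 5.37 with phytase and at 5.0, 4.72, 4.93 and 4.83 on the restricted diet. ADM, adrenomedullin, a vasodilator peptide, was at 5.11, 4.74, 5.0 and 5.24 with phytase and at 5.68, 5.36, 5.48 and 5.33 on the restricted diet. Normal pools averaged 5.30 for EGLN3 and 5.17 for ADM. Neither gene had overlapping groups, and they differed in opposite directions, by 0.55 ± 0.14 (SE) and -0.44 ± 0.16 (SE). That is 1 of 14 genes without overlap in each direction, beside 1.8% of all genes in each. KDM3A, a histone demethylase, differed by 0.59 ± 0.19 (SE), PDK1, which restrains pyruvate dehydrogenase, by 0.35 ± 0.15 (SE) and VEGFA by 0.33 ± 0.14 (SE). Over the 14 genes 8 were higher and 6 lower, and the median was 0.05. At an unadjusted limma p under 0.05, 4 were higher and 1 lower, beside 5.8% and 3.12% of all genes.

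Respiratory chain genes were lower with phytase in small steps. Differences were below 0 for 21 of 26 genes of complex I, all 5 of complex III, all 8 of complex IV and cytochrome c, and 8 of 9 of ATP synthase, beside 47.8% of all genes. Their medians were -0.12, -0.27, -0.16 and -0.12 on the log2 scale. UQCRFS1, the Rieske iron-sulfur protein, was at 7.21, 6.61, 7.03 and 6.67 with phytase, against 7.57, 7.49, 7.45 and 7.11 on the restricted diet. ATP5B, the catalytic beta subunit of ATP synthase, was at 9.05, 9.0, 9.07 and 9.29 with phytase and at 9.53, 9.44, 9.57 and 9.29 on the restricted diet. Restricted replicate 4 was low in both genes, and it was the lowest restricted pool for the mean of all 4 groups. In complex III that pool, at -0.16, lay within the phytase pools, which were at -0.01, -0.30, -0.15 and -0.15, while the other 3 restricted pools were at 0.34, 0.26 and 0.15. Without restricted replicate 1 the median of complex III was -0.14, and without restricted replicate 2 those of complexes I and IV were -0.08 and -0.11. Among pools without HINTW signal the medians were -0.08, -0.24, -0.10 and -0.04 for complexes I, III and IV and ATP synthase, and among pools with it -0.14, -0.48, -0.24 and -0.20.

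Genes of the citrate cycle and mitochondrial biogenesis, taken as 1 list, were mixed. Of 23 genes 9 were higher and 14 lower, with a median of -0.09, which was 0.01 without phytase replicate 2. Of the 23 genes 2 were lower without overlap, beside 1.8% of all genes. DLST, the succinyltransferase of the 2-oxoglutarate dehydrogenase complex, was at 6.94, 6.92, 6.98 and 6.94 on the log2 scale with phytase, against 7.18, 7.39, 7.36 and 7.20 on the restricted diet. OGDH, the dehydrogenase subunit of that complex, was at 8.18, 7.99, 8.43 and 8.41 with phytase and at 8.76, 8.44, 8.62 and 8.45 on the restricted diet. PPARGC1A, a coactivator of mitochondrial biogenesis, differed by 0.34 ± 0.15 (SE). It was dim, with a mean of 3.23 over the 12 arrays, and its difference was 0.13 with 16 added to the linear values. Glycolysis and glycogen genes gave 10 higher and 13 lower of 23, among them the phosphorylase kinase subunits PHKA1, at -0.34 ± 0.13 (SE), and PHKG1, at -0.36 ± 0.16 (SE), and the glycogen primer GYG1, at 0.49 ± 0.19 (SE).

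Cytosolic ribosomal protein genes were lower in 42 of 51 cases, with a median of -0.12 on the log2 scale. RPL19, RPS14 and RPS28 were the 3 of 51 lower without overlap, beside 1.8% of all genes, at -0.17 ± 0.10 (SE), -0.21 ± 0.09 (SE) and -0.22 ± 0.11 (SE), and RPL38 differed by -0.41 ± 0.15 (SE). Their mean deviation was -0.10, -0.04, 0.03 and -0.10 in phytase pools and -0.04, 0.26, 0.02 and -0.03 in restricted pools. Restricted replicate 2 was the high pool, and without it the median was -0.05. The median was 0.00 among pools without HINTW signal and -0.18 among pools with it. Mitochondrial ribosomal proteins gave 20 higher and 37 lower of 57, with a median of -0.05.

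Differences between the diets moved with gene span, the distance from a gene's first to its last annotated base. Span was known for 7947 of the 7954 genes from RefSeq's table of the GRCg7b assembly, and the genes were divided into 5 equal groups by it. In the shortest group, up to 5.42 kb, 33.5% of genes were higher with phytase and the median difference was -0.08 on the log2 scale. The medians were -0.04, 0.03 and 0.06 in the next groups and 0.10 in the longest group, from 50.6 kb upwards, where 68.3% of genes were higher with phytase. At an unadjusted limma p under 0.05 the shortest group had 13 genes higher with phytase and 84 lower, and the longest had 154 higher and 19 lower. Spearman's rho between span and difference was 0.298 across the 7947 genes, which share the same 8 pools.

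The gradient also differed between pools of one diet. The median deviation of the longest group was 0.07, 0.11, 0.04 and -0.02 on the log2 scale in phytase pools, and -0.22, -0.05, 0.09 and -0.03 in restricted pools. Restricted replicate 1 had the strongest gradient towards short genes, and restricted replicate 3 had the opposite one. Without restricted replicate 1 the medians were -0.05 in the shortest and 0.06 in the longest group. They were -0.03 and 0.06 among pools without HINTW signal and -0.11 and 0.16 among pools with it.

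The lists above differ in span, and their medians were recomputed with each array centred within these 5 groups. Members of complexes I, III and IV, of ATP synthase and of the cytosolic ribosome have median spans between 2.92 and 3.35 kb. After centring, the medians were -0.09, -0.23, -0.09, -0.05 and -0.05, and 35 of the 51 ribosomal genes were lower. The sarcomere framework, with a median span of 32.2 kb, had 21 of 26 genes higher and a median of 0.28. INPP5K stood at 0.56, PPP3CB at 0.65, NRAP at 0.78 and HBA1 at -1.23 after centring, while TTN, with a span of 249 kb, stood at 0.22. CAMK2D, of 158 kb, stood at 0.37, against 0.49 before, RYR3, of 185 kb, at 0.37 and CACNA2D1, of 360 kb, at 0.585. PPARGC1A, of 348 kb, stood at 0.22, against 0.34 before. Of the calcineurin and calmodulin kinase genes 13 of 19 were in the longest 2 groups, and their median was 0.005 after centring, against 0.04 before. For calcium release, storage and reuptake, with 15 of 19 there, it was 0.045, against 0.06. The inositol phosphate list had a median of 0.03 after centring, against 0.11 before, and of 0.04 without restricted replicate 1 and without centring. The part of gene span in the differences of single genes was not tested beyond this centring.

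**Figure D4:**
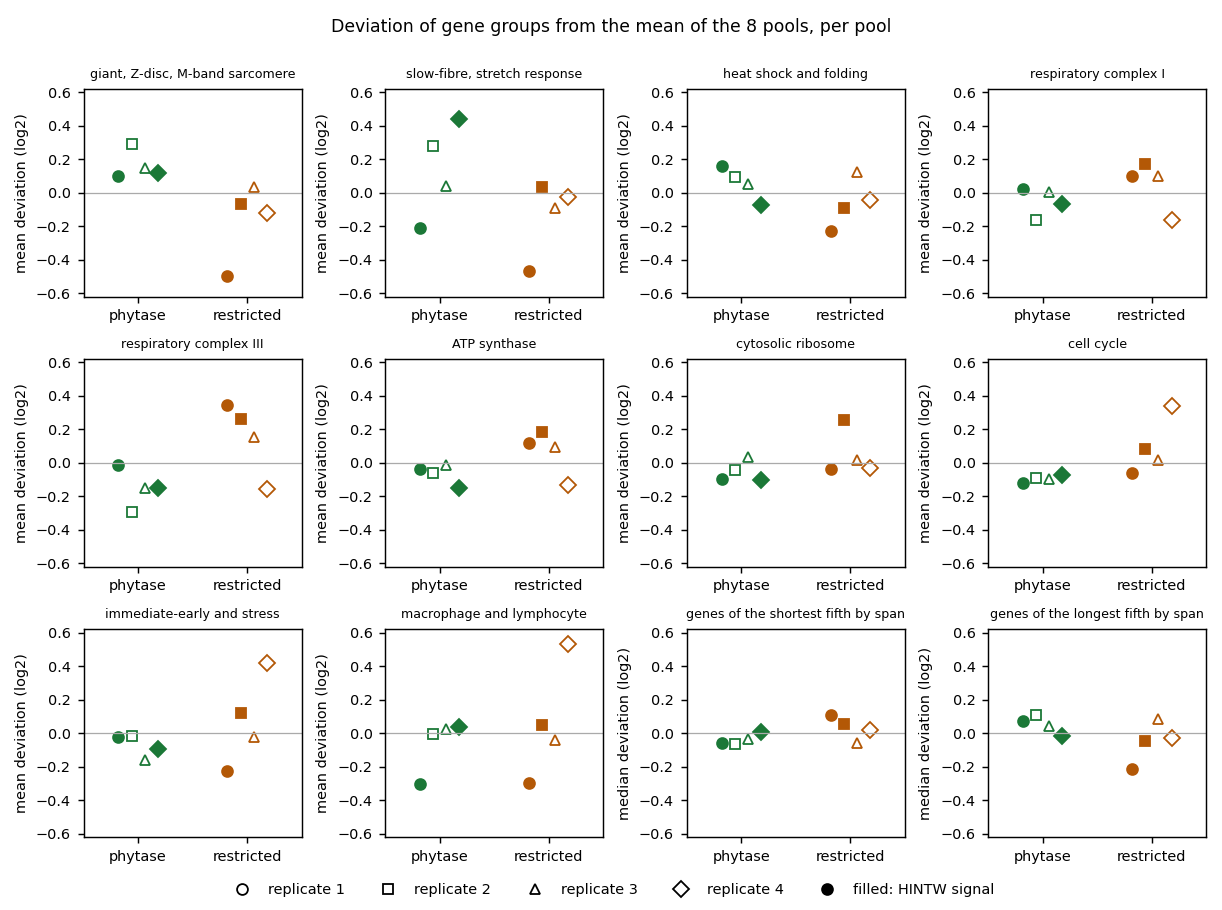
Deviation from the mean of the 8 pools, on the log2 scale, for 10 gene lists (mean over genes) and for the shortest and longest of 5 groups of genes by span (median over genes), with phytase pools left and restricted pools right in each panel. Filled symbols are pools with HINTW signal. Restricted replicate 1 is lowest in the sarcomere, slow-fibre and longest-gene panels, and restricted replicate 4 is highest in the cell cycle, immediate-early and macrophage panels.

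Cell cycle genes were lower with phytase in 14 of 16 cases, with a median of -0.18 on the log2 scale. Without restricted replicate 4 the median was -0.09, and with any single pool left out up to 5 of the 16 genes were higher. E2F1, which drives genes of DNA replication, was at 3.35, 2.94, 2.94 and 3.44 with phytase, against 3.99, 3.45, 3.46 and 3.79 on the restricted diet. TPX2, a spindle protein, and PLK1, a mitotic kinase, also had groups that did not overlap, at -0.28 ± 0.12 (SE) and -0.26 ± 0.14 (SE). These were the 3 of 16 genes lower without overlap, beside 1.8% of all genes, and their gaps were 0.01 to 0.03. The list was dim, with 16 of its 33 genes on the array bright enough to be tested. Its median was -0.08 with 16 added to the linear values. The mean deviation of the 16 genes was -0.12, -0.09, -0.09 and -0.07 in phytase pools and -0.06, 0.08, 0.02 and 0.34 in restricted pools. All 4 phytase pools thus lay below all restricted pools, but narrowly, and restricted replicate 4 stood far above the others. The mean level of the list reached 3.466 in phytase pools and began at 3.474 in restricted pools. In normal pools it ran from 3.474 to 3.603.

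The same restricted pool was highest for immune cell genes and for immediate-early genes. For 31 genes of macrophages, lymphocytes and antigen presentation the mean deviation was -0.30, -0.01, 0.02 and 0.04 on the log2 scale in phytase pools. It was 0.53 in restricted replicate 4 and -0.30, 0.05 and -0.04 in replicates 1 to 3 of that diet. Phytase was above the restricted diet in 9 of these genes and below it in 22, and the median of -0.07 was 0.02 without restricted replicate 4. The mean level of this list was between 4.36 and 4.70 in phytase pools and between 4.36 and 5.20 in restricted pools. CD72, a B cell surface protein, was the 1 of 31 members without overlap, beside 3.6% of all genes, at 2.61, 2.5, 2.62 and 2.76 with phytase and 3.31, 3.01, 3.07 and 3.11 on the restricted diet. CD72 averaged 2.62 with phytase, under the brightness limit of 2.67, and 2.70 in normal pools, close to it. It passed that limit mainly through the restricted pools, at 3.125 on average. Its difference of -0.50 was -0.16 with 16 added to the linear values. For 22 immediate-early and stress genes, 19 of them lower, restricted replicate 4 deviated by 0.42, and the median of -0.13 was 0.01 without it. The part of these cells in the cell cycle values was not tested.

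Other lists showed little. Adipocyte and fat storage genes gave 6 higher and 11 lower of 17, and PLIN1, which coats fat droplets, was at 6.38, 6.39, 6.50 and 6.27 with phytase, against 7.19, 6.90, 6.51 and 6.93 on the restricted diet. The other 3 transcript clusters of PLIN1 differed by -0.02, 0.54 and -0.19 on the log2 scale, so this gene has no single direction. CD36, a fatty acid transporter, differed by 0.60 ± 0.21 (SE). Collagens and their processing gave 14 higher and 23 lower of 37 with a median of -0.06, and the proteasome 13 higher and 15 lower of 28 with a median of -0.02. Endothelial and mural genes gave 10 higher and 7 lower of 17, and ligases, autophagy genes and proteases of muscle breakdown 14 higher and 15 lower of 29.

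Heat shock and folding proteins were higher in 41 of 63 cases, with a median of 0.13 on the log2 scale and 0.06 without restricted replicate 1. PPID, a cyclophilin that works with HSP90, was at 5.74, 5.48, 5.53 and 5.25 with phytase, against 4.82, 4.81, 5.11 and 4.92 on the restricted diet, and normal pools averaged 5.51. DNAJB4 and DNAJC7, partners of HSP70, differed by 0.82 ± 0.23 (SE) and 0.49 ± 0.15 (SE). DNAJC30, a mitochondrial relative, differed by -0.52 ± 0.18 (SE), and by -0.33 without restricted replicate 1. In growth signalling, MSTN, myostatin, which restrains muscle growth, was at 7.96, 8.09, 7.38 and 7.31 with phytase and at 6.39, 6.68, 8.08 and 7.27 on the restricted diet, with overlap. PIK3R1, the regulatory subunit of PI3 kinase, differed by 0.85 ± 0.32 (SE), and the list of 28 was even, with 15 higher and 13 lower. The 1 of 28 without overlap was lower with phytase, beside 1.8% of all genes. Satellite cell and myogenic regulators gave 12 higher and 7 lower of 19, with a median of 0.02 and differences down to -0.56. Among them MEF2C and MEF2A, transcription factors of muscle differentiation, differed by 0.49 ± 0.18 (SE) and 0.40 ± 0.18 (SE), and MEF2A by 0.24 without restricted replicate 1. Both were in the longest group by span, and after centring within these groups they stood at 0.37 and 0.285.

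**Figure D5:**
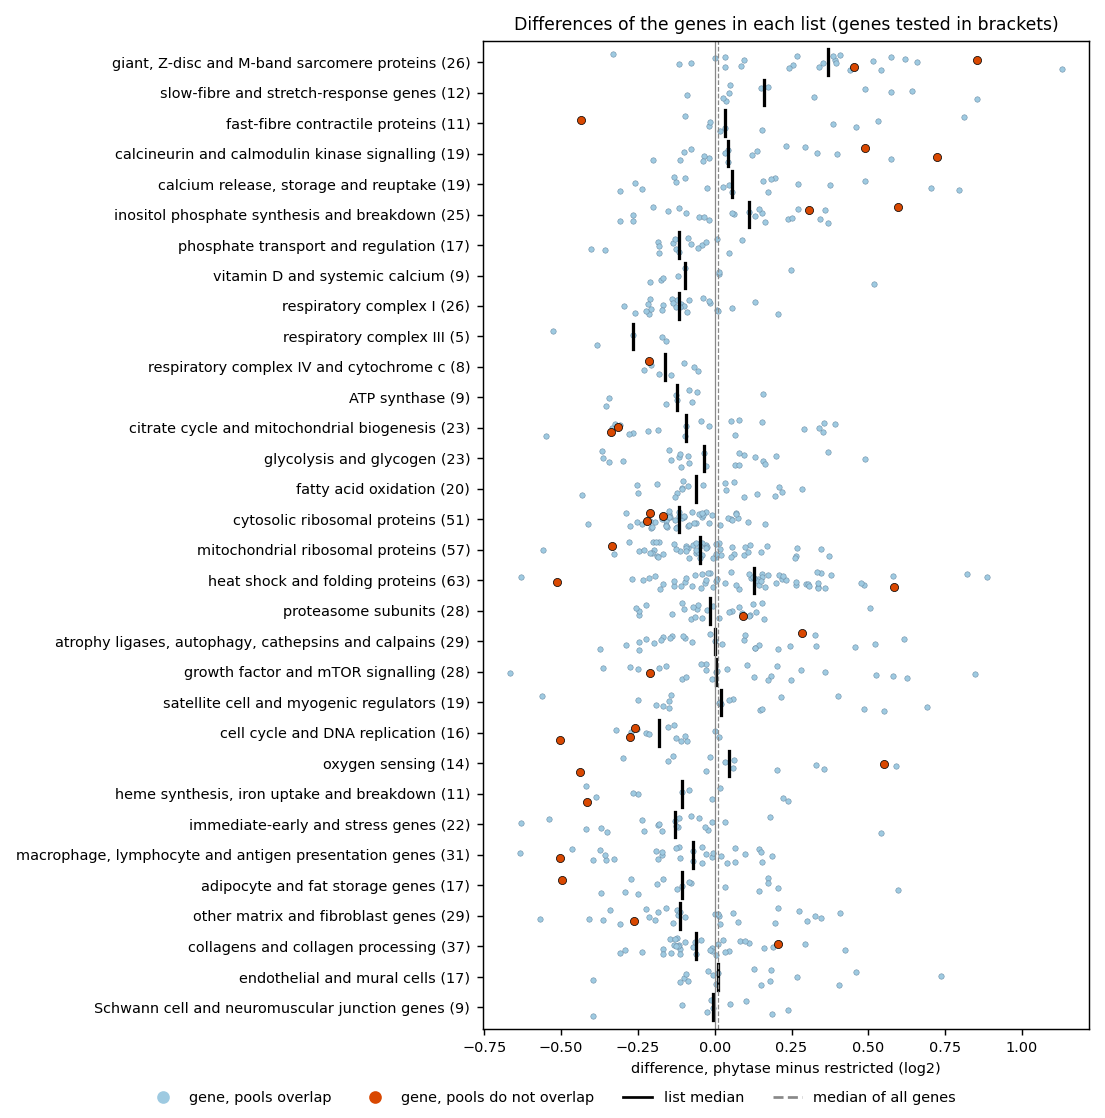
Difference, phytase minus restricted, on the log2 scale for every tested gene of 32 lists, with the list median as a black bar and genes whose pools do not overlap in orange. The dashed line is the median of all genes at 0.01, and the sarcomere list has the highest median at 0.37 and respiratory complex III the lowest at -0.27.

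The genes that stood apart most were chosen from the contrast itself and are given as a description. The 24 genes with the smallest p and the 20 with the largest differences without overlap made 35 genes, 23 higher and 12 lower with phytase, each with an adjusted p of 0.519 (limma, Benjamini-Hochberg). LOC430596, a gene without a known role, was at 3.91, 3.41, 3.78 and 3.82 on the log2 scale with phytase, against 2.64, 2.87, 2.65 and 2.70 on the restricted diet, and had the smallest unadjusted limma p, 7.62e-05. PTGR2, a prostaglandin reductase, was at 3.97, 3.91, 3.72 and 3.49 with phytase and at 2.88, 3.00, 3.19 and 2.95 on the restricted diet. AMPD3, an AMP deaminase, was at 6.83, 7.22, 6.94 and 7.01 with phytase, against 5.52, 6.31, 6.48 and 6.82 on the restricted diet, and its difference was 0.46 without restricted replicate 1, against 0.72 ± 0.22 (SE). PTPN21, a tyrosine phosphatase, was at 7.09, 7.01, 7.01 and 6.86 with phytase and at 6.41, 6.46, 6.74 and 6.47 on the restricted diet. PDZRN3, a ubiquitin ligase of the neuromuscular junction in mice, was at 7.58, 7.32, 7.38 and 7.36 with phytase and at 6.80, 6.93, 7.05 and 6.96 on the restricted diet. These 5 genes had no overlap between the diets.

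Of the 12 lower genes, 3 more are described here. ZNF628, a zinc finger protein, was at 2.90, 3.20, 2.76 and 3.35 on the log2 scale with phytase, against 4.54, 3.96, 3.86 and 3.41 on the restricted diet. NUP43, of the nuclear pore, was at 4.06, 4.13, 3.99 and 4.26 with phytase and at 4.69, 4.36, 4.85 and 4.85 on the restricted diet. CDC34, a ubiquitin-conjugating enzyme, was at 5.58, 5.31, 5.38 and 5.63 with phytase and at 6.45, 5.88, 5.81 and 5.86 on the restricted diet. Among the 35 genes, 21 shrank by more than 1.5 times with 16 added to the linear values, and 12 had a mean level under 4. One of the dimmest, NETO2, averaged 2.29 on the restricted diet and 2.595 in normal pools, under the brightness limit of 2.67. NETO2 passed that limit through the phytase pools, at 3.285 on average. Of the 23 higher genes 12 were in the longest 2 of the 5 groups by span, and of the 12 lower genes 10 were in the shortest 2.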

How the data were processed

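The deposited values are log2 levels of 20804 transcript clusters on 12 Affymetrix arrays. The submitters' processing notes name Affymetrix Expression Console and GCRMA, with no version. Their range of 0.83 to 14.36 was read as base 2, which the sources used here do not state. GCRMA pulls dim signals towards a floor, so small levels are imprecise.

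Gene names came from the platform annotation, where a single symbol stood beside 12300 transcript clusters, several beside 256 and none beside 8248. RefSeq's GRCg7b gene table held 11727 of the single ones. A gene's value is that of its brightest cluster. In all, 450 tested clusters share all values with another cluster.

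All 12 arrays entered a limma 3.58.1 fit (R 4.3.3) of 3 diet means with an intensity trend, and p-values were adjusted by Benjamini-Hochberg over the 12482 tested clusters. The fit was tested on simulated data. Lists are described by counts and medians, without a test. Named are the 24 genes with the smallest p, the 10 largest differences in each direction without overlap, a fixed set of phosphate, inositol, calcium and globin genes, and the members of each list with the smallest p or without overlap; other list members were named after their values were seen. The members and lists were chosen with earlier results of these data known. Same-numbered pools had correlations of 0.149, -0.126, 0.170 and -0.111 between their deviations, and differently numbered pools had -0.349 to 0.330. No pairing by number was seen, but these few values cannot exclude one, and none was used in the main fit. Precision is limited by the number of arrays, and p-values measure the spread between pools only. Gene span was examined after seeing the data.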

Additional observations from a re-analysis of the deposited data

Results flagged for a closer look

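In 27 cases 1 pool stood apart from the other 3 of its diet. Its gap, as a share of the range of the 4 pools, exceeded Dixon's 95% critical value for 4 samples. The measure is relative, so that small gaps can be flagged. INPP5K was at 3.84 on the log2 scale in phytase replicate 1 and at 3.88 in the other 3 phytase pools. The cases were 23 of 398 groups of single genes and 4 of 66 groups of list means, and chance gives about 1 in 20. No cause was weighed.

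In phytase pools, replicate 1 was low for INPP5K (3.84), MB (4.40), COX7A2 (2.44), TOP2A (2.45), EYA1 (4.38) and BTG1 (6.41) on the log2 scale. Phytase replicate 2 was high for ANO1 (5.88) and low for UQCRC2 (6.91) and MRPL38 (3.83). Phytase replicate 3 was high for IP6K2 (3.88), NDUFC2 (6.31), ATP5I (8.24) and CPT1A (5.55), and low for SDHA (6.86). Phytase replicate 4 was low for ANKRD1 (9.78) and IGF1 (2.99).

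In restricted pools, replicate 1 was high for CDC34 (6.45) and low for CCDC53 (4.00) and NUDT4 (6.85). Restricted replicate 3 was high for FKBP5, a chaperone induced by glucocorticoids, at 5.12, where the other restricted pools were at 3.17, 3.26 and 3.39. Restricted replicate 4 was high for HSD17B11 (4.73) and low for SDHB (6.83) and UQCR11 (8.40).

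Among list means, the deviation of phytase replicate 1 was -0.30 for macrophage and lymphocyte genes, that of phytase replicate 4 was -0.17 for calcium release and reuptake, and that of phytase replicate 3 was 0.20 for fatty acid oxidation. Restricted replicate 3 was at -0.17 for vitamin D and systemic calcium.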

How the results depend on the processing

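In limma, the count at an adjusted p under 0.05 was 0 under all 21 alternatives and with centring within groups of gene span, which was chosen after seeing the data. The count at an unadjusted p under 0.05, 1102 with all pools, was 587 among pools without HINTW signal and 610 among pools with it. With 1 pool left out it was 696 (without phytase replicate 2) to 1727 (without restricted replicate 3). With the replicate block it was 1072, and as the main fit had 0 calls at an adjusted p under 0.05, the block had none to end. The count of transcript clusters without overlap, 458, was 691 with no brightness filter and 658 to 1334 with 1 pool left out, where fewer pools must be separated. The 21 alternatives gave 4139 values for 199 named genes, a set that leaves out marker genes such as TNNC2 and ACTA1. Dim genes such as INPP5K had no value with a brightness filter at the 60th percentile. Direction was the same throughout in 186 of the 199 genes. Many were named for a small p or for pools without overlap in this same contrast. Genes without overlap cannot change sign when pools are left out, so that count was partly fixed by the choice of genes. Of 693 recomputed list medians 14 moved by more than the SD between pools. The cause of the reversals was not tested. Among pools with HINTW signal, differences were -0.02 for MINPP1, -0.19 for IMPA2, -0.055 for NFATC1, 0.01 for MCM5 and 0.065 for TFRC. Among pools without it they were -0.03 for XPR1, -0.16 for PPIP5K2, -0.045 for NFATC3, 0.07 for HINTW, 0.06 for SDHD and 0.04 for COX8A. With array weights XPR1 was at -0.024. With 1 pool left out, differences ran from -0.049 to 0.22 for MINPP1, -0.065 to 0.056 for XPR1, -0.078 to 0.051 for IP6K1, -0.03 to 0.14 for PPIP5K2, -0.031 to 0.20 for IPPK, -0.038 to 0.41 for IMPA2, -0.14 to 0.30 for NFATC3 and -1.2 to 0.74 for HINTW. With span centring 720 genes were at an unadjusted p under 0.05, against 709, and 532 were the same genes. SLC20A2 was then at -0.028, XPR1 at -0.11, PPIP5K2 at -0.063, CASQ2 at -0.033 and SDHD at 0.0025. Signal near the brightness limit restricts what can be said of dim genes such as SLC20A1 and E2F1.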
